A study of Mus musculus with 32 samples.

Results

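Slits, their Robo receptors and the semaphorins are cues that steer growing axons and vessels. The genes described here are 8 of the 34453 genes in the count table: the ligands *Slit2* and *Slit3*, the receptors *Robo1* and *Robo2*, the secreted semaphorins *Sema3a* and *Sema3c*, and the transmembrane semaphorins *Sema5a* and *Sema5b*. They were chosen from the difference between ages: *Robo1* and *Sema5b* had been seen lower at P40 than at P20, and the other members are relatives of these genes. For that reason, values of the members at P40 against P20 are given as a description with no test.

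RNA came from the RPE of both eyes of 16 mice labelled *rd1*, a strain whose rods degenerate through a *Pde6b* mutation. In each mouse, 1 eye had been injected with both AAV-Best1-Nrf2 and AAV-Best1-GFP (Nrf2 eye), the other with AAV-Best1-GFP alone (control eye). The Best1 promoter drives expression of the human Nrf2 cDNA in RPE cells. There were 7 control and 7 Nrf2 eyes at P20 and 9 control and 9 Nrf2 eyes at P40, from different mice at each age. The labels give every mouse as *rd1*, whereas the methods of the study count 6 *rd1* pairs at P20 and, at P40, 4 *rd1* pairs and 5 of the strain CD1, without degeneration. The labels were used here. Which P40 mice would be CD1 is not given, so a part of strain in the differences between ages cannot be told apart from age. RNA was released from the eyecup after the retina had been taken off, and was amplified before sequencing. Reads came from more than 1 sequencing run, which the labels do not assign to libraries. The titles of all P20 libraries begin with M and those of all P40 libraries with A, so anything that this letter stands for cannot be told apart from age.

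Slit proteins are secreted, bind Robo receptors on the cell surface, and mostly repel growth cones. They also act on endothelial cells and, in the retina, on ganglion cell axons and vessels. Class 3 semaphorins are secreted and signal through neuropilins and plexins, whereas class 5 semaphorins sit in the membrane and carry thrombospondin repeats, and in the mouse retina they keep neurites of inner neurons within their layer.

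Total counts ran from 23756954 to 41463426 in P20 control eyes (median 30969254), from 16548332 to 50542797 in P20 Nrf2 eyes (32215113), from 17721493 to 43412270 in P40 control eyes (34586699) and from 32422410 to 49147448 in P40 Nrf2 eyes (38726346). Levels are CPM, that is, counts scaled to a common library size after TMM normalization, and 3 counts, taken as the floor, stood for between 0.0566 and 0.182 CPM. The floor covers counting error only, since reads of amplified RNA are not independent molecules. All 8 members were above the floor in all 32 libraries and passed the filter on low counts in all 5 comparisons. The lowest counts were 5 for *Sema5b*, 8 for *Slit3* and 16 for *Sema3a*. No member shared exon bases with another gene.

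The human *NFE2L2* transgene separated the groups except for libraries of 2 P20 mice. Its level was 1082 to 9506 CPM (median 5430) in P20 Nrf2 eyes and 3205 to 10440 CPM (median 7024) in P40 Nrf2 eyes. In control eyes it was 0.924 to 1098 CPM (median 47.2) at P20 and 0 to 99.2 CPM (median 0.383) at P40. The library labelled control of P20 mouse 3 held 1098 CPM, above the 1082 CPM of the library labelled Nrf2 of P20 mouse 4, and the next control eye, of P20 mouse 5, held 154 CPM. These libraries of mice 3 and 4 were also the closest of all pairs, with a mean squared difference of 7.84 times the sampling noise, against 44.9 for the next pair. The labels were kept, and the members' differences and the counts of called genes are also given without these libraries.

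The tissue was checked against markers. The summed level of 12 RPE markers, of which *Ttr* (transthyretin) had the highest mean over the 32 libraries and *Rgr* the highest in P20 control eyes, was between 7043 and 71540 CPM over the 32 libraries. Markers of other cells were present too, and their values are given after those of the members.

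Compared per kb of exon, *Sema3c* was the most abundant member and, with merged exons, *Sema3a* the least. In P20 control eyes the median level per kb was 27.5 CPM for *Sema3c*, 1.30 for *Slit2*, 1.14 for *Robo2*, 0.995 for *Robo1*, 0.789 for *Sema5b*, 0.743 for *Sema5a*, 0.369 for *Slit3* and 0.128 for *Sema3a*. In P40 control eyes the order was *Sema3c* (25 CPM per kb), *Slit3* (0.604), *Slit2* (0.546), *Robo2* (0.495), *Sema5a* (0.417), *Robo1* (0.297), *Sema5b* (0.180) and *Sema3a* (0.115). Only the gap between *Sema3c* and the next gene was wider than the spread between eyes, in all 4 groups, and the ranges of all other neighbours overlapped. With the length of the longest transcript in place of merged exons, *Slit3* moved from place 2 to place 5 in P40 control eyes and from 4 to 6 in P40 Nrf2 eyes. In P40 Nrf2 eyes *Robo1* then moved from place 6 to 4, and *Sema5b* (0.330) was below *Sema3a* (0.349). In P20 control eyes *Sema5a* and *Sema5b* changed places.

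**Figure D1:**
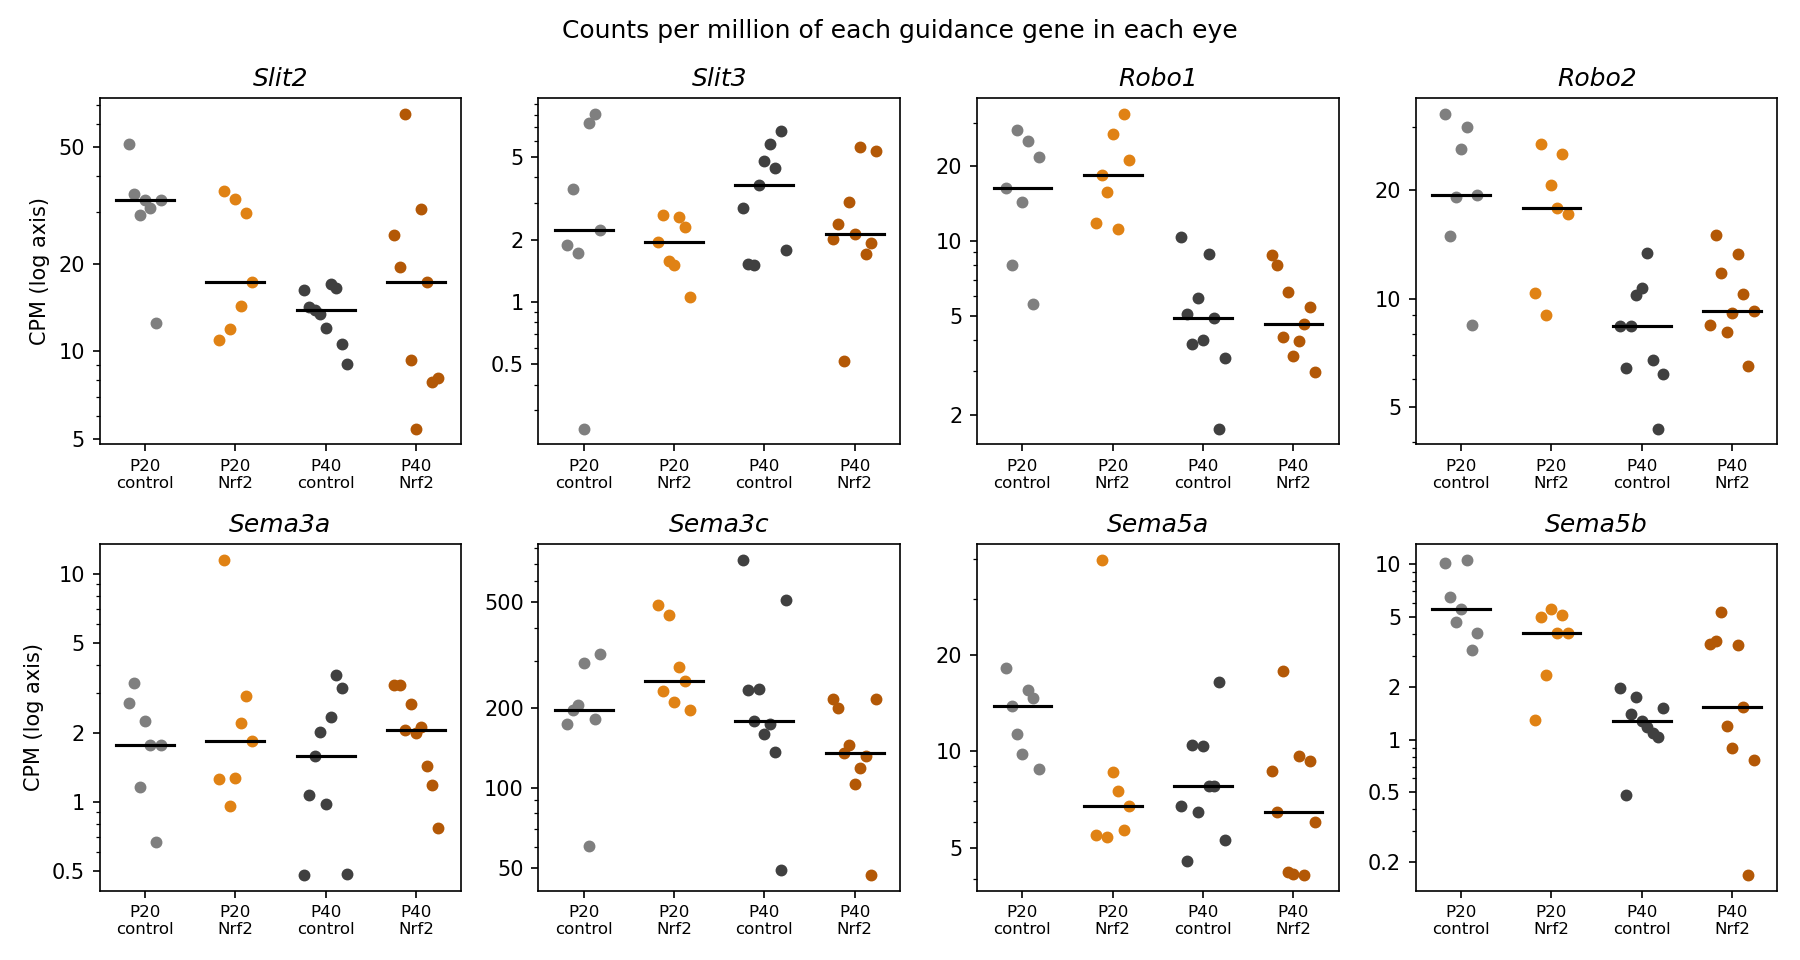
Level of each member in each eye (CPM, log axis), by age and treatment, with the median of each group as a bar. *Sema5b* in control eyes and *Robo1* in Nrf2 eyes had all 9 P40 eyes below all 7 P20 eyes.

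At P40 against P20, the log2 differences of the members ran from −2.27 for *Sema5b* to 0.40 for *Sema3c* in control eyes, and from −1.88 for *Robo1* to 0.53 for *Slit3* in Nrf2 eyes. Each is given below with its SE. The starts of *Robo1*, *Robo2*, *Slit2* and *Sema5b*, shown here because these 4 genes had the lowest values at P40 against P20 in control eyes, were read from RefSeq (GRCm38.p6), which held all 8 members. The runs are the 250 bases before the start, 5′ to 3′, on the strand of the gene: *Robo1* at chr16:72662899-72663148 (+), *Robo2* at chr16:74411826-74412075 (-), *Slit2* at chr5:47982905-47983154 (+) and *Sema5b* at chr16:35541112-35541361 (+). Capitals mark the letters GGGCGG, which of these 4 only *Slit2* holds, at bases 81 to 76, 61 to 56 and 49 to 44 before its start.
Robo1: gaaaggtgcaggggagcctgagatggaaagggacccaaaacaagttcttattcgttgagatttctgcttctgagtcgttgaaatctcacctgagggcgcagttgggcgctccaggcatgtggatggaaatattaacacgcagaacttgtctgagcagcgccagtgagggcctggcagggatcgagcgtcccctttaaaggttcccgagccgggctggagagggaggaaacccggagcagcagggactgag
Robo2: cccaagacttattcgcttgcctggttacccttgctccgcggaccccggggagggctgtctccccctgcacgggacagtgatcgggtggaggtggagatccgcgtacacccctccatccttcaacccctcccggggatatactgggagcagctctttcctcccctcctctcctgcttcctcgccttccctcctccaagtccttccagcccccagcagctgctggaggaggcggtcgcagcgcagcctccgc
Slit2: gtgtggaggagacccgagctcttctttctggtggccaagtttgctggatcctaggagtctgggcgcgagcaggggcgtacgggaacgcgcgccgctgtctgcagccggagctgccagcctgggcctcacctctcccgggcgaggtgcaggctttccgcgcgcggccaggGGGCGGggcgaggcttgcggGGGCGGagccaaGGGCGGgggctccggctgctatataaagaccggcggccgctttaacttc
Sema5b: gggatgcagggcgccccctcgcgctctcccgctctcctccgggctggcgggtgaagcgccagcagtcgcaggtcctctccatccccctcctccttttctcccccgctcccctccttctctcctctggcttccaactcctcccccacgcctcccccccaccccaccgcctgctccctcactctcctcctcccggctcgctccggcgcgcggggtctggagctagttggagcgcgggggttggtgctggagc

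Motifs were searched on both strands of the same 250 bases. TGACNNNGC, the core of the antioxidant response element to which Nrf2 binds, was in none of the members' promoters and in 10.2% of 32841 promoters. GGGCGG, the GC box, stood 3 times in the promoter of *Slit2*, 6 times in *Slit3*, 3 times in *Sema3c* and 5 times in *Sema5a*, and 32.7% of all promoters held it. CCAAT was in no member's promoter and in 33.9% of all promoters. The promoters of *Robo1*, *Robo2*, *Sema3a* and *Sema5b* held none of these letters. *Robo2* had 3 promoters in RefSeq, and the one printed ends where the gene begins in GENCODE, whereas the starts of *Robo1* and *Sema3a* lay 354843 and 271370 bases inside the GENCODE genes. Those of *Sema3c*, *Slit3* and *Sema5b* lay 535, 232 and 217 bases inside, and those of *Slit2* and *Sema5a* 17 and 3. A match is a description of letters, and a missing match says only that they are not in this window.

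Slit ligands at the 2 ages are described first. *Slit2* (ENSMUSG00000031558, GRCm38 chr5:47983138-48307733, + strand) encodes a secreted repellent that binds *Robo1* and *Robo2* proteins. Its level in control eyes was 12.6 to 51.6 CPM (median 33) at P20 and 9.07 to 17 CPM (median 13.9) at P40. All 9 P40 eyes were below the P20 median, 6 of 7 P20 eyes were above all P40 eyes, and P20 mouse 6 was the control eye that overlapped. Fitted in edgeR, P40 against P20 gave a log2 difference of −1.21 (SE 0.22, 7 P20 and 9 P40 eyes), and −1.24 without the control library of P20 mouse 3. In Nrf2 eyes the level was 11 to 35.5 CPM (median 17.3) at P20 and 5.44 to 65.3 CPM (median 17.3) at P40. Of the P40 eyes, 4 were below all P20 eyes and 1 was above them. The log2 difference there was −0.015 (SE 0.47). Its sign rested on single eyes, being −0.47 without the Nrf2 eye of P40 mouse 3, which held 65.3 CPM, 0.13 without that of P20 mouse 2, and 0.066 without the Nrf2 library of P20 mouse 4.

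*Slit3* (ENSMUSG00000056427, chr11:35121224-35708507, + strand), a second ligand of the Robo receptors, was scarce and variable. In control eyes it was at 0.245 to 8.11 CPM (median 2.24) at P20 and 1.51 to 6.67 CPM (median 3.66) at P40, with a log2 difference of 0.069 (SE 0.52), and −0.056 without the control library of P20 mouse 3. In Nrf2 eyes it was at 1.06 to 2.63 CPM (median 1.95) at P20 and 0.518 to 5.61 CPM (median 2.14) at P40, with a log2 difference of 0.53 (SE 0.40). The ages overlapped in either eye. The sign in control eyes changed with the eye left out, from −0.14 without P20 mouse 4 to 0.42 without P20 mouse 6, and the value in Nrf2 eyes was 0.44 without the Nrf2 library of P20 mouse 4.

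*Robo1* (ENSMUSG00000022883, chr16:72308306-73046095, + strand), a receptor for Slits, had lower medians at P40 in both eyes. In control eyes its level was 5.57 to 27.9 CPM (median 16.4) at P20 and 1.76 to 10.4 CPM (median 4.91) at P40. Of the P40 eyes, 6 were below all P20 eyes, and the lowest P20 eye was again that of mouse 6. The fitted log2 difference was −1.64 (SE 0.36), and −1.49 without the control library of P20 mouse 3. In Nrf2 eyes the level was 11.1 to 32.6 CPM (median 18.5) at P20 and 2.98 to 8.75 CPM (median 4.63) at P40, so that the ages did not overlap. Here the log2 difference was −1.88 (SE 0.28), and −1.82 without the Nrf2 library of P20 mouse 4.

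*Robo2* (ENSMUSG00000052516, chr16:73891839-74411825, - strand), a receptor for Slits that guides ganglion cell axons, had lower medians at P40 in both eyes too. In control eyes its level was 8.44 to 32.6 CPM (median 19.4) at P20 and 4.37 to 13.4 CPM (median 8.41) at P40. There, 6 of 7 P20 eyes were above all P40 eyes, and the exception was mouse 6. Its log2 difference was −1.34 (SE 0.27), and −1.37 without the control library of P20 mouse 3. In Nrf2 eyes the level was 9.04 to 26.9 CPM (median 17.9) at P20 and 6.50 to 15.1 CPM (median 9.22) at P40, all 9 P40 eyes being below the P20 median. The log2 difference was −0.79 (SE 0.24), and −0.81 without the Nrf2 library of P20 mouse 4.

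Among the secreted semaphorins is *Sema3c* (ENSMUSG00000028780, chr5:17574281-17730268, + strand), known for its part in vessels and the heart's outflow tract. In control eyes it was at 60.3 to 319 CPM (median 196) at P20 and 48.8 to 723 CPM (median 179) at P40, with overlapping ranges and a log2 difference of 0.40 (SE 0.44), or 0.39 without the control library of P20 mouse 3. Without P40 mouse 1, the control eye with 723 CPM, that value was 0.060. In Nrf2 eyes it was at 196 to 488 CPM (median 253) at P20 and 46.9 to 216 CPM (median 135) at P40. There, 6 of 9 P40 eyes were below all P20 eyes, and the log2 difference was −1.03 (SE 0.28), or −1.13 without the Nrf2 library of P20 mouse 4.

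*Sema3a* (ENSMUSG00000028883, chr5:13125414-13602565, + strand), a repellent that signals through *Nrp1*, was at low levels in every group. Its medians were 1.78 CPM (range 0.666 to 3.31) in P20 control eyes, 1.86 CPM (0.959 to 11.5) in P20 Nrf2 eyes, 1.59 CPM (0.479 to 3.62) in P40 control eyes and 2.07 CPM (0.769 to 3.27) in P40 Nrf2 eyes. The log2 difference was −0.14 (SE 0.44) in control eyes and −0.54 (SE 0.49) in Nrf2 eyes. Single libraries turned both directions: 0.033 in control eyes without P20 mouse 2, and 0.28 in Nrf2 eyes without P20 mouse 2. Without the libraries of P20 mice 3 and 4 named above, the values were −0.24 and −0.74.

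Of the class 5 semaphorins, *Sema5b* (ENSMUSG00000052133, chr16:35541145-35664732, + strand), which restrains neurites of inner retinal neurons, was at 3.24 to 10.6 CPM (median 5.58) in P20 control eyes and 0.482 to 1.96 CPM (median 1.28) in P40 control eyes, with no overlap. The fit gave a log2 difference of −2.27 (SE 0.31), and −2.34 without the control library of P20 mouse 3. In Nrf2 eyes it was at 1.29 to 5.56 CPM (median 4.05) at P20 and 0.169 to 5.35 CPM (median 1.53) at P40, and 8 of 9 P40 eyes were below the P20 median. The log2 difference was −0.74 (SE 0.53), and −0.67 without the Nrf2 library of P20 mouse 4.

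*Sema5a* (ENSMUSG00000022231, chr15:32244810-32696341, + strand), which acts with *Sema5b* in the inner retina, was at 8.84 to 18.2 CPM (median 13.9) in P20 control eyes and 4.53 to 16.4 CPM (median 7.80) in P40 control eyes. The log2 difference was −0.61 (SE 0.26), and −0.65 without the control library of P20 mouse 3, and 6 of 9 P40 eyes were below all P20 eyes. In Nrf2 eyes it was at 5.41 to 39.7 CPM (median 6.76) at P20 and 4.12 to 17.9 CPM (median 6.49) at P40. The difference of −0.47 (SE 0.45) in Nrf2 eyes turned to 0.29 without P20 mouse 2, whose eye held 39.7 CPM, and was −0.60 without the Nrf2 library of P20 mouse 4.

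Over all genes, 8.34% were higher and 6.42% lower at P40 in control eyes (edgeR, adjusted *P* threshold 0.05, 16832 genes tested). In Nrf2 eyes, 0.167% of 16745 genes were higher and 0.334% lower. All P40 eyes lay below all P20 eyes for 0.707% of the genes tested in control eyes, 1 member (*Sema5b*) among them, and for 0.603% in Nrf2 eyes, 1 member (*Robo1*) among them. Since the age contrast served to choose the members, their calls are not given and nothing is read from these counts. The counts over all genes also depend on single eyes. In control eyes, 473 genes were called without P20 mouse 5 (155 higher and 318 lower) and 4273 without P40 mouse 1 (2280 and 1993). Without the control library of P20 mouse 3 there were 652 (233 and 419). With no filter on low counts, 295 were higher and 619 lower, so which direction had more genes depended on these choices. In Nrf2 eyes, 84 genes were called, with 34 called without the Nrf2 library of P20 mouse 4.

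**Figure D2:**
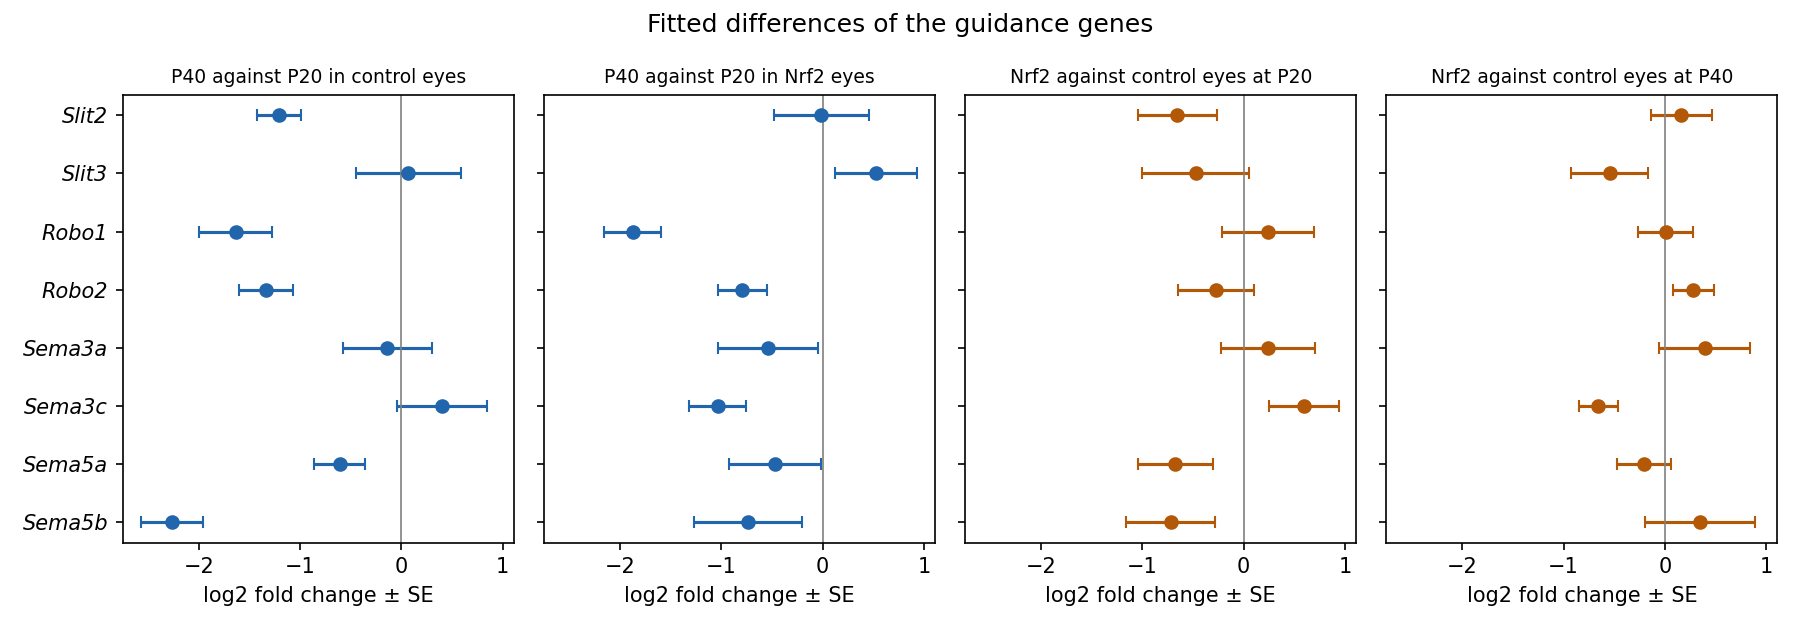
Log2 difference of each member with its SE in each comparison, P40 against P20 in either eye and Nrf2 against control eye at either age, with a line at 0. *Sema5b* in control eyes had the lowest value, −2.27.

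Whether the Nrf2 eye differed from the control eye of the same mouse was tested, since the choice of members did not use it, although the control eyes are those that entered the age contrast. At P20, 2.93% of 16303 genes were higher and 0.485% lower in Nrf2 eyes, and at P40, 3.33% of 16686 genes were higher and 1.23% lower. The count at P20 was 556 (477 higher and 79 lower), and 759 (502 and 257) without P20 mice 3 and 4. With 1 mouse left out it ran from 111 (102 and 9) without mouse 7 to 1999 without mouse 4, where the lower genes outnumbered the higher (986 higher and 1013 lower). No member passed the edgeR test at either age (0 of 8). At an unadjusted *P* under 0.05, 0 members passed at P20, beside 2964 of the 16303 genes, and 1 at P40, *Sema3c*, beside 2173 of the 16686. DESeq2 called 0 members and 1951 genes at P20, and 1 member, again *Sema3c*, and 1380 genes at P40.

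*Sema3c* was lower in the Nrf2 eye in 9 of 9 mice at P40. The differences between the eyes of a mouse ran from −1.74 to −0.055 on the log2 scale (median −0.55). In edgeR the fit gave −0.66 (SE 0.19) with an adjusted *P* of 0.0958, which missed the threshold, and in DESeq2 −0.66 with an adjusted *P* of 0.0223. Over the 13 alternatives the adjusted *P* ran from 0.0223 to 0.333 and the log2 fold change from −0.91 to −0.52. At P20, 5 of 7 mice had more *Sema3c* in the Nrf2 eye, with a log2 fold change of 0.59 (SE 0.35; edgeR adjusted *P* = 0.401), and 0.69 (adjusted *P* = 0.402) without P20 mice 3 and 4.

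**Figure D3:**
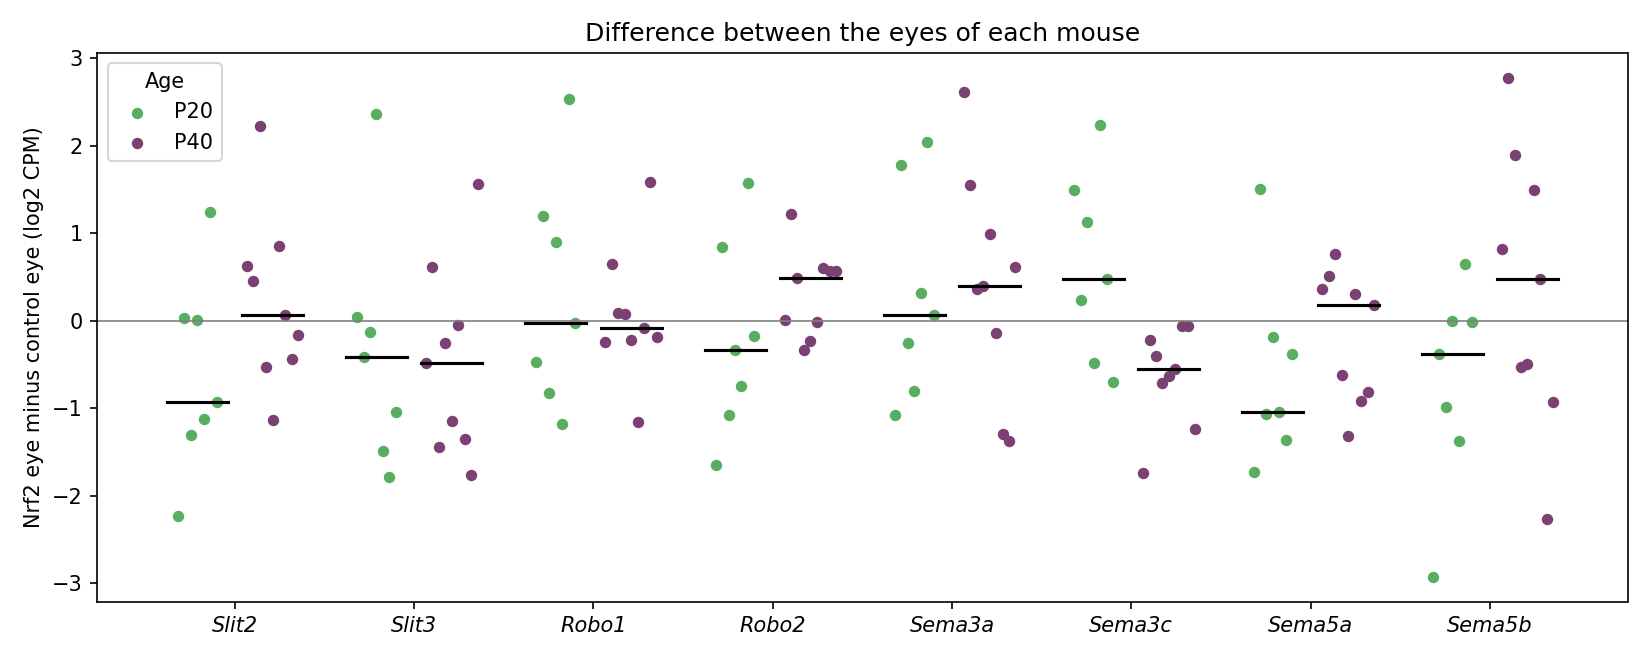
Difference between the Nrf2 eye and the control eye of each mouse (log2 CPM), by member and age, 7 mice at P20 and 9 at P40, with medians as bars. *Sema3c* at P40 is below 0 in all 9 mice.

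The receptors and ligands showed no difference between the eyes that passed the test. *Robo1* had log2 fold changes of 0.24 (SE 0.45, adjusted *P* = 0.824 in edgeR; higher in 3 of 7 mice) at P20 and 0.0067 (SE 0.27, adjusted *P* = 0.997; 4 of 9 mice) at P40. *Robo2* was at −0.27 (SE 0.38, higher in 2 of 7 mice) and 0.28 (SE 0.20, 6 of 9 mice), and *Slit2* at −0.66 (SE 0.39, 3 of 7 mice) and 0.16 (SE 0.30, 5 of 9 mice). *Slit3* was lower at both ages, at −0.47 (SE 0.53, higher in 2 of 7 mice) and −0.54 (SE 0.38, 2 of 9 mice). Adjusted *P* of these last 3 genes in edgeR was 0.409 to 0.739 at P20 and 0.67 to 0.921 at P40. Signs near 0 turned when 1 mouse was left out. *Robo1* went to −0.089 at P20 without mouse 6, and at P40 to −0.071, −0.0016 and −0.17 without mouse 2, 4 or 8, while *Slit2* went to −0.027 at P40 without mouse 3.

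At P20, 1 of 7 mice had more *Sema5a* in the Nrf2 eye, and 1 of 7 had more *Sema5b*. Their log2 fold changes there were −0.68 (SE 0.37, edgeR adjusted *P* = 0.375) and −0.72 (SE 0.44, adjusted *P* = 0.421). At P40 they were −0.21 (SE 0.26, adjusted *P* = 0.868; 5 of 9 mice) and 0.35 (SE 0.54, adjusted *P* = 0.895; 5 of 9 mice). *Sema3a* was at 0.24 (SE 0.46, adjusted *P* = 0.826; 4 of 7 mice) at P20 and 0.39 (SE 0.44, adjusted *P* = 0.841; 6 of 9 mice) at P40, and its P20 sign turned without mouse 2 (−0.022) or mouse 6 (−0.032). None of these 3 genes passed the test at either age. Without P20 mice 3 and 4, log2 fold changes at P20 were 0.31 for *Robo1*, −0.095 for *Robo2*, −0.68 for *Slit2*, −1.01 for *Slit3*, 0.58 for *Sema3a*, −0.71 for *Sema5a* and −0.83 for *Sema5b*, with adjusted *P* of 0.202 to 0.942 in edgeR.

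Whether the Nrf2 effect itself differed between the ages was fitted over all 32 libraries, with each mouse as a block. The largest values were −1.24 (SE 0.40) for *Sema3c*, 1.08 (SE 0.74) for *Sema5b* and 0.83 (SE 0.50) for *Slit2*, on the log2 scale. The others were 0.56 (SE 0.41) for *Robo2*, 0.48 (SE 0.45) for *Sema5a*, 0.15 (SE 0.67) for *Sema3a*, −0.075 (SE 0.63) for *Slit3* and −0.22 (SE 0.50) for *Robo1*. These are descriptions, since the contrast holds the age difference. Without P20 mice 3 and 4 they were −1.38 for *Sema3c*, 1.17 for *Sema5b*, 0.82 for *Slit2*, 0.35 for *Robo2*, 0.47 for *Sema5a*, −0.21 for *Sema3a*, 0.44 for *Slit3* and −0.33 for *Robo1*. The signs of *Robo1*, *Slit3* and *Sema3a* also turned when 1 mouse was left out: *Robo1* ran from −0.48 without P20 mouse 5 to 0.12 without P20 mouse 6, *Slit3* from −0.32 without P20 mouse 6 to 0.31 without P20 mouse 4, and *Sema3a* from −0.11 without P40 mouse 1 to 0.45 without P20 mouse 6. Over all genes 1 of 17959 was called, 0.00557%: *Serpine3*, named after its values were seen (log2 fold change −3.08, edgeR adjusted *P* = 0.00347). Nothing about the members is read from that count.

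Some markers of other cells were called by edgeR at P40 against P20, and some in Nrf2 against control eyes. No endothelium or muscle marker was called in any comparison. The part of other cells in the member values was not tested. In bulk RNA, fewer cells of a type and less RNA per cell cannot be told apart. The gene named for each list is the one with the highest mean over the 32 libraries. Mural cell markers (8 genes, *Acta2*) had summed medians of 736 CPM in P20 control eyes, 880 in P20 Nrf2 eyes, 358 in P40 control eyes and 273 in P40 Nrf2 eyes, and 2 of 8 were called lower at P40 in control eyes and 1 of 8 in Nrf2 eyes. Fibroblast markers (8 genes, *Fbln1*, with *Dcn* above it in P40 Nrf2 eyes) had medians of 816, 717, 457 and 536 CPM in the same order, and 4 of 8 were called lower at P40 in control eyes. Inner retina markers (12 genes, *Trpm1*) had medians of 1711, 1424, 546 and 650 CPM, and 2 of 10 tested were called lower in control eyes. That sum is mostly *Trpm1*, with means of 1271, 1247, 519 and 484 CPM, and it did not always follow the rest of the list. In Nrf2 against control eyes at P20, 7 of 8 tested genes were below 0 (median log2 fold change −1.48), whereas the *Trpm1* means were close. At P40 against P20, 9 of 10 tested genes were below 0 in control eyes (median log2 difference −1.68). In Nrf2 eyes 5 of 7 tested were above 0 (median 1.91), and 1 of 7, *Trpm1*, was called lower. The P20 control eye of mouse 6 was the lowest of its group for these lists, with 344, 183 and 506 CPM. It was lowest too for the Müller glia, endothelium and muscle lists and in total count, 23756954. Of the members, it was lowest for *Robo1*, *Robo2*, *Slit2*, *Sema3a* and *Sema5b*. It was highest for *Slit3* (8.11 CPM), and its *Sema5a* (14.7 CPM) was above the group median. The P40 control eye of mouse 8 had the lowest sums of its group for mural cells (192 CPM), inner retina (278 CPM) and RPE (11180 CPM). Its sums of Müller glia (1241 CPM), endothelium (68.7 CPM) and macrophages and microglia (111 CPM) were also the lowest, as was its total count. Of the members, that eye was lowest for *Robo1*, *Robo2* and *Sema3c*, and highest for *Slit3* (6.67 CPM) and *Sema5a* (16.4 CPM).

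Photoreceptor RNA was lower in most Nrf2 eyes. Cone markers (8 genes, *Pde6h*, with *Arr3* above it in P20 control eyes and *Gnat2* in Nrf2 eyes) had medians of 309 CPM in P20 control eyes, 31.2 in P20 Nrf2 eyes, 788 in P40 control eyes and 48.7 in P40 Nrf2 eyes, with 2 of 8 called lower in Nrf2 eyes at P20 and 8 of 8 at P40. Rod markers (8 genes, *Sag*) had medians of 105, 10.7, 166 and 14.5 CPM, with 0 of 8 called in Nrf2 against control eyes at P20 and 2 of 7 tested called lower at P40 by edgeR. The exceptions were P40 mouse 6, with more in the Nrf2 eye (cones 307 and 271 CPM, rods 76.2 and 67.6 CPM), and P20 mouse 2 for rods (92.7 and 84.1 CPM), while P20 mouse 3 had nearly equal cone sums (34.7 and 39.1 CPM). The control library of that mouse is the one with 1098 CPM of the transgene. Its cone sum lies within the range of P20 Nrf2 eyes, 17.9 to 94.9 CPM. So does that of the control eye of P20 mouse 6 (67.3 CPM), which held 1.165 CPM of the transgene. RPE markers were at 16490, 19070, 35960 and 21350 CPM, with 1 of 12 called higher at P40 in control eyes and, in Nrf2 against control eyes, 1 of 12 called lower at P20 (*Rpe65*) and 4 of 12 at P40 (*Rpe65*, *Lrat*, *Rgr* and *Rdh5*). *Ttr* makes up much of that sum and did not follow these genes, with means of 3087, 9369, 13630 and 19410 CPM, and its log2 fold changes in Nrf2 eyes, 1.58 (SE 0.45) and 0.42 (SE 0.51), did not pass the edgeR test. Mural markers had 2 of 8 called lower in Nrf2 eyes at P20 and 1 of 8 at P40, and fibroblast markers 1 of 8 called higher at P40. Macrophage and microglia markers (8 genes, *Csf1r*) were at 306, 213, 161 and 209 CPM, and 3 of 8 were called higher in Nrf2 eyes at P40 (*C1qa*, *Cx3cr1* and *Adgre1*). The sum does not follow most of the list: 6 of 8 markers had values above 0 in Nrf2 against control eyes at P20 (median log2 fold change 0.81) and 5 of 8 at P40 (median 0.94), while *Csf1r* was at −0.76 (SE 0.24) and −0.99 (SE 0.29), neither of which passed the edgeR test. The called RPE, macrophage and microglia markers were named after their values were seen.

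The remaining lists are given by their medians in the same order of groups. Müller glia (7 markers, *Car14*, with *Dkk3* above it at P20) had medians of 2926, 2650, 2626 and 2697 CPM. That sum is mostly *Car14*, with means of 1003, 986, 1343 and 1052 CPM, and *Dkk3*, with 1341, 1225, 733 and 909 CPM. In Nrf2 against control eyes at P20, 6 of 7 Müller glia markers were below 0 (median log2 fold change −0.62). At P40 against P20, 5 of 7 were below 0 in control eyes (median −0.56) and 4 of 7 above 0 in Nrf2 eyes (median 0.12). Endothelium (8 markers, *Plvap*) had medians of 117, 82.7, 119 and 145 CPM. Schwann cell and melanocyte markers (8 genes, *Mbp*) were at 398, 337, 239 and 236 CPM. Muscle (6 markers, *Acta1*) was at 74.5, 48.9, 111 and 147 CPM and blood (3 markers, *Hba-a1*) at 801, 545, 559 and 481 CPM. At P40 against P20 in control eyes, edgeR called 2 of 7 tested Schwann cell and melanocyte markers, 1 of 7 Müller glia, 1 of 8 macrophage and microglia, 2 of 8 rod and 1 of 3 blood markers lower.

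**Figure D4:**
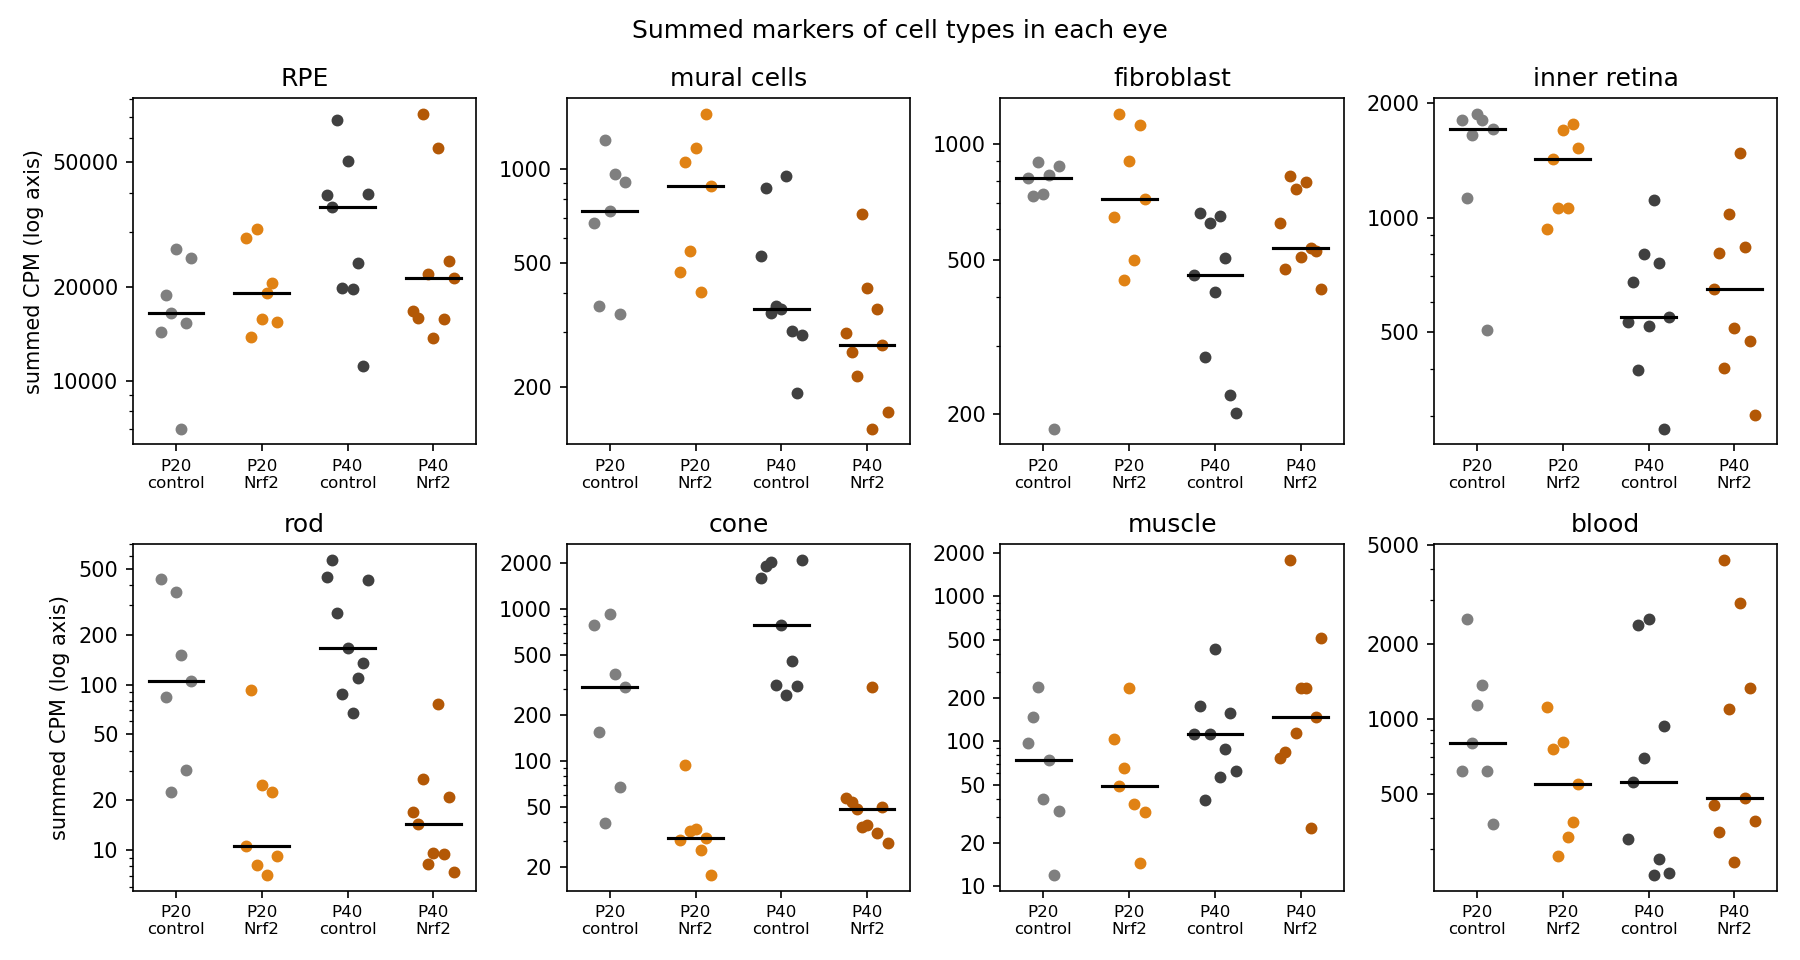
Summed CPM of 8 of the marker lists in each eye (log axis), by age and treatment, with group medians as bars. Inner retina markers, whose sum is mostly *Trpm1*, had a median of 1711 CPM in P20 control eyes and 546 CPM in P40 control eyes. Cone markers had a median of 788 CPM in P40 control eyes and 48.7 CPM in P40 Nrf2 eyes.

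Among the members themselves, Pearson's r of log2 CPM over the 32 libraries was taken for 28 pairs. The 3 highest were 0.791 for *Robo1* with *Robo2*, 0.811 for *Slit2* with *Sema5b* and 0.804 for *Robo2* with *Sema5b*, and 0.572, 0.751 and 0.609 after group means were taken out. The lowest was −0.311 for *Sema3a* with *Sema3c* (−0.376 within groups), *Robo1* with *Slit3* had −0.256 (−0.176), and *Robo1* with *Sema5b* had 0.643 (0.295). The genes most like *Robo1* among 11791 were *Adamts1*, a secreted protease (r 0.92, and 0.78 within groups), *Myh11*, a smooth muscle myosin that is also in the mural list (0.914 and 0.811), and *Emilin2*, a matrix glycoprotein (0.913 and 0.829). Those most like *Sema5b* among 11792 were *Ppargc1b*, a transcriptional coactivator (0.887 and 0.797), *Cd200*, a surface glycoprotein (0.884 and 0.801), and *Trim9*, a ubiquitin ligase of neurons (0.874 and 0.793). The points share library, depth and scaling, so these r are descriptions.

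The wider guidance families were 86 genes in 5 lists. These lists were chosen with earlier results of these data known, as relatives of members picked for lower values at P40. Their counts and adjusted *P* at P40 against P20 are therefore descriptions, and no excess over all genes is read from them. At P40 against P20 in control eyes, of 84 tested, 20 were called lower (23.8%, beside 6.42% of all genes) and 0 higher by edgeR (36 lower and 1 higher at an unadjusted *P* under 0.05, beside 5917 of all genes), with a median log2 difference of −0.55 against −4.61e-05 over all genes. They were 3 of 13 Slit and Robo partners, 5 of 16 semaphorins, 4 of 20 semaphorin receptors and transducers, 2 of 13 netrin and RGM genes and 6 of 22 ephrins and Eph receptors. The count moved with single eyes, as did that of all genes. It was 9 without the control library of P20 mouse 3 (419 of 17065 genes lower over all), 7 without P20 mouse 1 (312 of 16913) and 8 without P20 mouse 5 (318 of 17058). It was 10 without P40 mouse 2 (490 of 16677), P40 mouse 5 (422 of 16746), P20 mouse 2 (465 of 17026) or P20 mouse 7 (446 of 16959). It was 13 without P40 mouse 3 (599 of 16750), P40 mouse 7 (704 of 16624) or P20 mouse 4 (596 of 17031). It was also 13 of 86 with no filter on low counts (619 of 27489), and 28 without P40 mouse 1 (1993 of 16700). DESeq2 called 29 lower and 1 higher, beside 1661 and 2669 of 16832. In the same comparison, edgeR called 4 of 8 fibroblast, 2 of 10 inner retina and 2 of 8 mural markers lower, with median log2 differences of −0.89, −1.68 and −0.41. The part of other cells in the values of the guidance families, here and below, was not tested.

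Among the genes of these families that edgeR called lower, the largest decreases were in semaphorins, their transducers and ephrin signalling. *Sema4d*, a transmembrane ligand of *Plxnb1*, was at 20.7 to 146 CPM (median 67.3) at P20 and 10.7 to 34.0 CPM (median 19.9) at P40 (log2 fold change −1.86, SE 0.31, edgeR adjusted *P* = 0.00498). *Efnb3*, a transmembrane ephrin, was at 1.21 to 8.68 CPM (median 4.24) at P20 and 0.227 to 2.30 CPM (median 1.23) at P40 (−2.04, SE 0.49, edgeR adjusted *P* = 0.0218; 0.0548 without P20 mouse 1). *Ephb2*, a receptor for such ephrins, was at 10.2 to 24 CPM (median 17.2) and 2.07 to 10.1 CPM (median 4.00) (−1.60, SE 0.34, edgeR adjusted *P* = 0.0162). The ages of *Ephb2* did not overlap, and those of the other pair of genes did. Without the control library of P20 mouse 3, the log2 fold changes of *Sema4d*, *Efnb3* and *Ephb2* were −1.89, −2.03 and −1.62, with edgeR adjusted *P* of 0.0123, 0.0423 and 0.032. *Sema6b* (log2 fold change −2.18, SE 0.71, edgeR adjusted *P* = 0.0473) and *Dpysl5* (−1.67, SE 0.55, adjusted *P* = 0.0499), a collapsin response protein, were called in 6 and 2 of 21 alternatives. *Sema6b* ranged from 0.307 to 13.6 CPM in P20 control eyes and from 0.318 to 2.75 CPM at P40, and *Dpysl5* from 1.12 to 13.7 and from 0.468 to 2.47 CPM, so that the ages overlapped. Calls of both were lost without the control library of P20 mouse 3 (adjusted *P* = 0.0638 and 0.0565), and their highest adjusted *P*, 0.123 and 0.148, came without P20 mouse 1.

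In Nrf2 eyes, 0 of 82 of these genes were called at P40 against P20 by edgeR, with a median log2 difference of −0.23. At an unadjusted *P* under 0.05, 14 were lower and 2 higher, beside 4326 of 16745 genes over all, and DESeq2 called 8 lower and 0 higher, beside 598 and 1037. When the Nrf2 effects at the ages were compared, 0 of 86 were called by edgeR, 2 at an unadjusted *P* under 0.05 (429 of 17959 over all) and 0 by DESeq2 (12 over all).

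**Figure D5:**
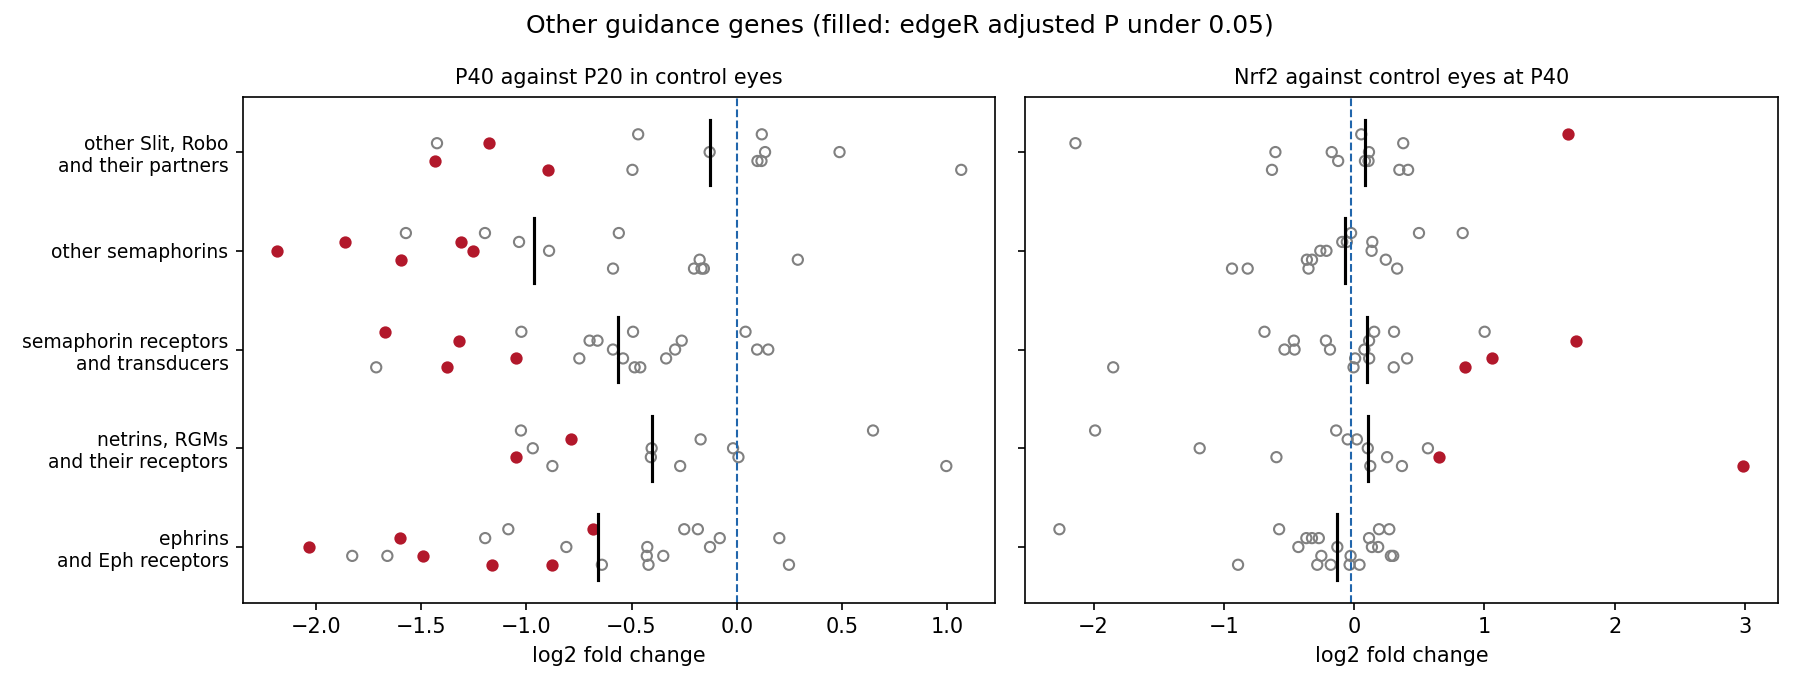
Log2 fold change of each tested gene of the wider guidance families, by list, at P40 against P20 in control eyes (left) and in Nrf2 against control eyes at P40 (right), with filled points for called genes, a bar at each list's median and a dashed line at the median of all genes. On the left 20 of 84 were called lower, and on the right 6 of 83 were called higher.

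Genes of the wider guidance families were also compared between the Nrf2 eye and the control eye. At P40, 6 of 83 genes (7.23%, beside 3.33% of all genes) were called higher and 0 lower by edgeR. At an unadjusted *P* under 0.05, 7 were higher and 5 lower, and DESeq2 called 7 higher and 3 lower, beside 873 and 507 of 16686 genes. At P20, 1 of 82 (1.22%, beside 2.93%) was called higher and 0 lower by edgeR. At an unadjusted *P* under 0.05, 7 were higher and 12 lower, and DESeq2 called 6 higher and 5 lower, beside 1244 and 707 of 16303 genes. *Unc5b*, a netrin receptor that also binds Robo4, was at 0.901 to 5.76 CPM (median 2.82) in P40 control eyes and 12.8 to 30.4 CPM (median 24.8) in P40 Nrf2 eyes, with no overlap. The fit gave 2.99 on the log2 scale (SE 0.25, edgeR adjusted *P* = 3.86e-05, higher in 9 of 9 mice). At P20 it was at 2.47 to 6.64 CPM (median 3.31) in control eyes and 6.65 to 38.6 CPM (median 21.3) in Nrf2 eyes (2.60 on the log2 scale, SE 0.31, edgeR adjusted *P* = 0.00921, 7 of 7 mice), and the log2 fold change was 3.00 (adjusted *P* = 0.00348) without P20 mice 3 and 4. The count at P40 was 3 without P40 mouse 4 (423 of 16630 genes higher over all), and 4 without P40 mouse 1 (484 of 16629), 5 (433 of 16707) or 7 (396 of 16686). Without P20 mouse 4, 2 of 82 were higher and 10 lower at P20, beside 986 and 1013 of 16330 over all, and without P20 mice 3 and 4 there were 2 higher and 2 lower, beside 502 and 257 of 16567. Markers of macrophages and microglia (3 of 8) and of fibroblasts (1 of 8) were also called higher in Nrf2 eyes at P40 by edgeR, and those of RPE (4 of 12), cones (8 of 8), rods (2 of 7) and mural cells (1 of 8) lower.

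The neuropilins, through which class 3 semaphorins such as *Sema3a* and *Sema3c* signal, rose in Nrf2 eyes at P40. *Nrp1* was at 9.58 to 26.3 CPM (median 17) in control eyes and 15.3 to 46.3 CPM (median 33.9) in Nrf2 eyes (0.85 on the log2 scale, SE 0.16, edgeR adjusted *P* = 0.00706). *Nrp2* was at 7.70 to 21.7 CPM (median 13) and 8.13 to 60.9 CPM (median 30.1), with a log2 fold change of 1.06 (SE 0.23, edgeR adjusted *P* = 0.0196). Both were higher in 9 of 9 mice, and the groups overlapped. At P20 the values were alike but missed the threshold: *Nrp1* had medians of 25.1 and 46.5 CPM (0.88, SE 0.27, edgeR adjusted *P* = 0.133, higher in 6 of 7 mice) and *Nrp2* 23.3 and 35.9 CPM (0.84, SE 0.19, adjusted *P* = 0.0565, 7 of 7 mice). The fitted difference between the ages was −0.025 (SE 0.30) and 0.23 (SE 0.32), which did not pass (edgeR adjusted *P* = 1 for both). *Plxnc1*, the receptor of *Sema7a*, was at 2.00 to 9.74 CPM (median 4.72) and 7.51 to 45.1 CPM (median 15.7), and *Srgap1*, a GTPase activator that binds *Robo1*, at 0.958 to 5.25 CPM (median 3.56) and 3.22 to 33.4 CPM (median 7.90). *Plxnc1* had a log2 fold change of 1.70 (SE 0.33, edgeR adjusted *P* = 0.0109), and *Srgap1* of 1.64 (SE 0.36, adjusted *P* = 0.0192), each higher in 9 of 9 mice. At P20 they were at 0.60 (edgeR adjusted *P* = 0.375, 5 of 7 mice) and 0.55 (adjusted *P* = 0.337, 6 of 7 mice). The sixth gene, the netrin receptor *Unc5c*, was named after its values were seen (log2 fold change 0.66, SE 0.15, edgeR adjusted *P* = 0.0237, 9 of 9 mice) and was called in 6 of 13 alternatives. The call of *Nrp2* was lost without P40 mouse 4 or 7 (adjusted *P* = 0.0567 and 0.0662), and that of *Srgap1* without P40 mouse 1, 4 or 5 (0.055, 0.0516 and 0.0521). The call of *Unc5c* was lost without P40 mouse 1, 4, 5, 7 or 9 (0.0563, 0.0791, 0.0718, 0.0928 and 0.0682).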

How the data were processed

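RNA-seq of the RPE was analysed in 32 libraries. The deposited table holds estimated counts, 1 value per gene and library, which the authors rounded to whole numbers; whether they came from Salmon or from featureCounts is not given in the sources used here. The submitters' processing notes name FastQC and Salmon 0.9.1. Members were found by symbol, from GENCODE M21 on GRCm38. Fits were made with edgeR 4.0.16 in R 4.3.3: genes kept by filterByExpr, library sizes normalized with TMM, each gene tested with the quasi-likelihood F test (not robust), and *P* adjusted by Benjamini-Hochberg over all genes tested, with a threshold of 0.05. Mouse was a block in the Nrf2 comparisons and none was used between ages, whose mice differ. SE is the log2 fold change divided by the root of its F. Differences between eyes and correlations used log2 CPM with a prior count of 2.

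The pairing of eyes, taken from the labels, was checked on deviations from group means over the genes kept by the filter. At P20 the mean r was 0.0213 within mice and −0.000519 between mice, and at P40 it was 0.099 and −0.00632. Within mice, r ran from −0.273 to 0.27 at P20 and from −0.352 to 0.618 at P40. It was over 0.1 in 3 of 7 mice at P20 and 3 of 9 at P40, so the check does not settle the pairing. The fit was tested on simulated data. Alternatives were DESeq2 1.42.0, RLE normalization, no filter, no replicate block, 1 fit of all 32 libraries, omission of each mouse or eye, and omission of the libraries of P20 mice 3 and 4 named in the report.

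Named were all 8 members and, of 5 lists of other guidance genes, up to 5 increases and 5 decreases per comparison among called genes, by size. For *Robo1* and *Sema5b*, the 3 genes with the highest r over the 32 libraries were named, among genes tested in all 5 comparisons with a mean log2 CPM of at least 2, and of each list of cell type markers the gene with the highest mean. The values of 1 of the marker genes are left out of the report. The members and lists were chosen with earlier results of these data known.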

Additional observations from a re-analysis of the deposited data

Results flagged for a closer look

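Of the 32 groups of values (8 members in 4 groups of eyes), 5 had an eye far from the others of its group. The rule takes about 1 in 20 as the rate by chance, which was not measured on these data. The groups share libraries, so nothing is read from the count. In P40 Nrf2 eyes, *Slit2* was at 65.3 CPM in mouse 3, with the nearest eye at 30.8 CPM. The same eye had *Sema5a* at 17.9 CPM, with the nearest at 9.67 CPM, and it also had the highest sums of RPE (71540 CPM), fibroblast (824 CPM), muscle (1784 CPM) and blood (4342 CPM) markers of its group. In P20 Nrf2 eyes, mouse 2 had *Sema3a* at 11.5 CPM (nearest 2.91) and *Sema5a* at 39.7 CPM (nearest 8.61). That library had the lowest total of all, 16548332 counts, and the highest fibroblast (1194 CPM), rod (92.7 CPM) and cone (94.9 CPM) sums of its group. In P40 control eyes, *Sema5a* was at 16.4 CPM in mouse 8, with the nearest at 10.5 CPM, and that library had the lowest total of its group, 17721493 counts. The part of depth and of other cells in these values was not tested.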

How the results depend on the processing

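Of 696 member values under alternatives, 685 kept their direction and their side of the threshold, or, where no test was made, moved by less than the spread between eyes. Of the others, 9 turned sign, all of values that did not pass the test: in Nrf2 against control eyes with 1 mouse left out, *Robo1* ran from −0.089 to 0.505 and *Sema3a* from −0.032 to 0.488 at P20, and *Robo1* from −0.172 to 0.147 and *Slit2* from −0.027 to 0.331 at P40. *Robo1* at P40 was also −0.0035 by DESeq2 and −0.054 with no replicate block. *Sema3c* at P40 passed by DESeq2, and *Sema5a* at P40 against P20 in Nrf2 eyes moved from −0.47 to 0.29 without P20 mouse 2. The cause was not tested.

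The counts of called genes moved more. In Nrf2 against control eyes at P20 the 556 genes became 1951 by DESeq2, 348 with no filter on low counts (more genes tested) and 1093 with no replicate block, and 111 to 1999 with 1 mouse left out: 143 without mouse 1, 163 without 3, 1999 without 4, 154 without 5, 228 without 6 and 111 without 7. At P40 the 762 became 1380 by DESeq2, 716 with no replicate block and 521 to 997 with 1 mouse left out.

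At P40 against P20 in control eyes the 2483 became 4330 by DESeq2, 914 with no filter and 652 without the control library of P20 mouse 3. With 1 eye left out they ran from 473 (P20 mouse 5) to 4273 (P40 mouse 1). They were 1005, 950 and 607 without P40 mouse 2, 3 or 5, and 494, 727, 1137, 1520 and 734 without P20 mouse 1, 2, 4, 6 or 7. The 1403 higher and 1080 lower genes became 233 and 419 without P20 mouse 3.

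In Nrf2 eyes the 84 became 1635 by DESeq2, 31 with no filter, 34 without the Nrf2 library of P20 mouse 4 and 496 in 1 fit of all 32 libraries. With 1 eye left out they ran from 21 (P20 mouse 6) to 190 (P40 mouse 2). They were 38, 53, 45 and 51 without P40 mouse 5, 6, 7 or 8, and 41, 40, 45, 47 and 31 without P20 mouse 1, 2, 3, 5 or 7. For the difference between the ages, 1 gene became 12 by DESeq2 and stayed 1 under each omission of 1 mouse.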
